A study of Mus musculus with 10 samples.

Results

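The phagocyte NADPH oxidase is the enzyme complex with which neutrophils, monocytes and macrophages make superoxide. Its membrane part is a heterodimer of the catalytic chain NOX2, encoded by Cybb, and the small chain encoded by Cyba, which stabilises it. On activation, cytosolic subunits, among them the organiser encoded by Ncf1 and the phosphoinositide-binding subunit encoded by Ncf4, move to the membrane together with a Rac GTPase, of which Rac2 is the form of blood cells. Loss of the oxidase in people causes chronic granulomatous disease, and in the vessel wall superoxide is known for inactivating nitric oxide. The 5 genes described here, Cybb, Cyba, Ncf1, Ncf4 and Rac2, were taken by symbol from a table of 48526 mouse genes, and all 5 had a row.

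The samples were labelled as endothelial cells of the aorta, isolated by fluorescence-activated sorting from mice whose strain the labels give as ApoE, with no further detail of genotype and no age. Acute mental stress was applied to 5 of the samples' mice for 3 h on each of 3 consecutive days (stressed), and the 5 other samples came from mice without it (non-stressed). Nothing states whether a sample was 1 animal or a pool. Read counts per gene were deposited for each library, with totals of 18020220 to 38237346.

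The label of endothelial cells did not match the markers in these libraries. Cdh5, which encodes VE-cadherin, the junction protein that defines endothelium, had 115 reads over all 10 libraries and reached at most 0.994 CPM (counts per 1000000 counts of a library). Only 20 reads fell on Nos3, whose enzyme makes nitric oxide in endothelium. Of the 11 endothelial markers, 2 (Tek and Emcn) were at 0 in every library, and the summed list lay between 32.7 and 79.9 CPM in stressed and 37.2 and 88.4 CPM in non-stressed libraries, with Vwf and Pecam1, which platelets also carry, at the top. Lyz2, the lysozyme of myeloid cells, stood at 20041 to 26748 CPM in stressed and 15692 to 26274 CPM in non-stressed libraries, and Csf1r, the receptor of monocytes and macrophages, at 2323 to 2600 and 2368 to 2766 CPM in the same order. The values below are therefore those of libraries rich in myeloid transcripts. In such bulk samples fewer cells of a type and less RNA per cell cannot be told apart.

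Cybb (ENSMUSG00000015340) lies on chromosome X from 9435252 to 9487771 (mm10, minus strand), Cyba (ENSMUSG00000006519) on chromosome 8 from 122424776 to 122432930 (minus strand) and Ncf1 (ENSMUSG00000015950) on chromosome 5 from 134220053 to 134229625 (minus strand). Ncf4 (ENSMUSG00000071715) and Rac2 (ENSMUSG00000033220) both lie on chromosome 15, from 78244801 to 78262580 on the plus strand and from 78559167 to 78572783 on the minus strand. Exons of Ncf1 share 408 bases with Gtf2ird2, a gene on the opposite strand, and the strand setting of the counting is not given. Gtf2ird2 had 7.79% as many reads as Ncf1 over the 10 libraries. These are reads of the whole of Gtf2ird2, so the share does not measure how far the overlap affects the Ncf1 counts. The 50-base words of the members' transcripts were sought, in either orientation, in transcripts of other genes. Of these words 0% were found for Cybb and Ncf4, 1.29% for Rac2, 2.39% for Cyba and 7.45% for Ncf1. Those of Ncf1 were in Gtf2ird2, the gene of the overlap, and in Zhx3.

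The 250 bases before the RefSeq start of Cybb, Cyba and Ncf1 (build GRCm38.p6) are shown because the oxidase genes are textbook targets of PU.1, an ETS family factor of myeloid cells; windows of Ncf4 and Rac2 are not shown. They run 5′ to 3′ on the gene's strand and cover chrX:9469325-9469574, chr8:122432941-122433190 and chr5:134229626-134229875. The Cybb window lies inside the GENCODE span given above (9435252 to 9487771), as the RefSeq start of Cybb is not the GENCODE one. Capitals mark GGAA, the core of ETS sites, and CCAAT, on either strand, with no overlap between these motifs.
Cybb: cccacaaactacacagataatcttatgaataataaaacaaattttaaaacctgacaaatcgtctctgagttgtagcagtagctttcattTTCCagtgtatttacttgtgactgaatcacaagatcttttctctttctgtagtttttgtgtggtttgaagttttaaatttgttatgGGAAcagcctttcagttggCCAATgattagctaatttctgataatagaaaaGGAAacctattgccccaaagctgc
Cyba: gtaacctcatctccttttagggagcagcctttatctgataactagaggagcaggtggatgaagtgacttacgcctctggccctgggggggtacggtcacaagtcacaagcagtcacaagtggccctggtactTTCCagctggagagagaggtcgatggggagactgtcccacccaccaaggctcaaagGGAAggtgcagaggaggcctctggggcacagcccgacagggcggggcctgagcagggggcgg
Ncf1: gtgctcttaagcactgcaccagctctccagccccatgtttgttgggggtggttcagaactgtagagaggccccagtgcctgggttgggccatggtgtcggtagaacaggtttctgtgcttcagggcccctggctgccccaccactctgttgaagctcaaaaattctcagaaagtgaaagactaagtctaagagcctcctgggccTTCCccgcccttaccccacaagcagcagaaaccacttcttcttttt
The Cybb window held GGAA 3 times and CCAAT once (1 match), the Cyba window GGAA 2 times and the Ncf1 window GGAA 1 time. GGAA was found in 93.4% and CCAAT in 33.8% of 32851 windows of the same length over the genome. The longer word GAGGAA (in 23.3% of windows) was in none of these 3 windows. A match describes letters and not a bound site.

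All 5 genes were well expressed. Per exon length both genes of the membrane pair lay above the others in all 10 libraries, while by counts Cyba stood near Rac2. Cybb, the catalytic chain, ranked between place 10 and place 20 of all genes by counts in every library. Per unit of exon length, scaled to a fixed sum per library (transcripts per 1000000, TPM), Cyba averaged 1907 ± 101 in stressed and 1841 ± 42.6 in non-stressed libraries, and Cybb 1618 ± 170 and 1777 ± 160 (SD, n = 5 each). Rac2 followed at 564 ± 43.5 TPM in stressed and 567 ± 38.2 TPM in non-stressed libraries. Ncf4 stood at 525 ± 31.9 and 452 ± 44.8 TPM, and Ncf1 was lowest at 341 ± 27.5 and 312 ± 29.4 TPM (SD, n = 5 each, stressed libraries before non-stressed). By this length Cyba lay above Cybb in 8 of 10 libraries, so these neighbours were not separated beyond their spread. Rac2 lay above Ncf4 in 9 of 10, and Ncf1 below both in all 10. The summed monocyte and macrophage markers, cells that carry all 5 genes, lay between 26823 and 34055 CPM in stressed and 22153 and 34139 CPM in non-stressed libraries, with 5 of 10 markers higher and 5 lower by fold change and 0 called. Most of that sum was Lyz2, at a mean of 23301.5 CPM in stressed and 20488.9 CPM in non-stressed libraries. With the longest transcript as the length of a gene, Ncf4 (523 TPM over all libraries) stood above Rac2 (448 TPM), so the order of this pair depends on the length used. By that length Cyba (1938 to 2243 TPM) lay above Cybb (1300 to 1933 TPM) in every library, so the separation of these neighbours depends on it too. Together the 5 genes took 0.455 ± 0.0225% of all counts in stressed and 0.464 ± 0.0282% in non-stressed libraries (SD, n = 5 each).

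**Figure D1:**
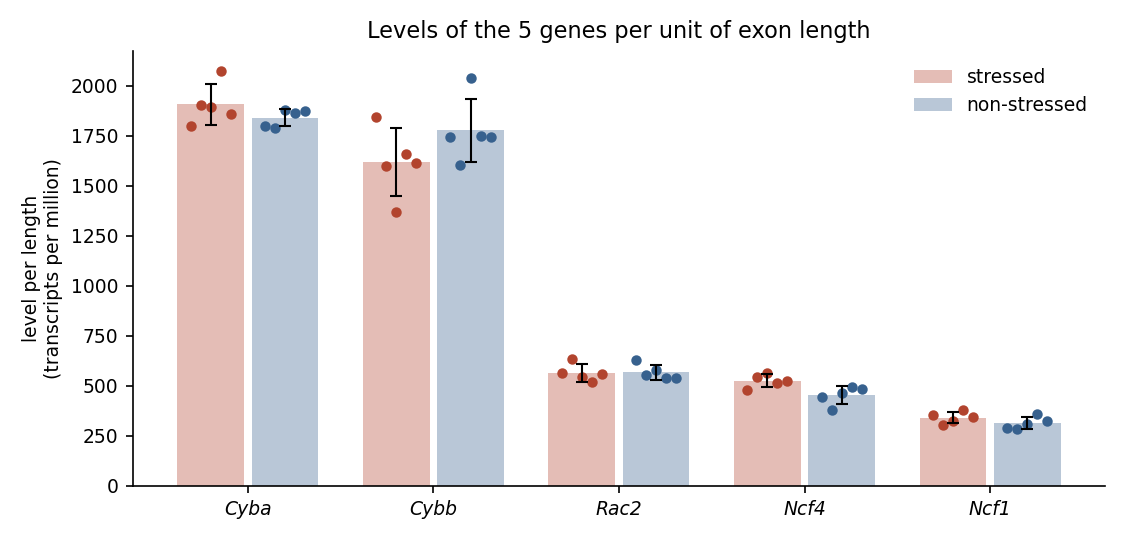
Level per exon length (TPM) of the 5 genes in stressed (left bar of each pair) and non-stressed libraries. Bars are means, points are libraries and lines are SDs of 5. Cyba and Cybb, at 1371 to 2072 TPM, lie well above Rac2, Ncf4 and Ncf1.

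The series asked how acute stress changes the sorted cells. Of the 5 oxidase genes, 0 differed between stressed and non-stressed libraries at an adjusted p under 0.05 in edgeR's quasi-likelihood test, against 1 of 13334 genes tested (0.0075%). DESeq2 called 0 of the 5, against 0.114% of the genes it tested, and limma-voom 0, against 2 of 13334. At an unadjusted p under 0.05 there was 1 member in edgeR, Ncf4, where 5.53% of all genes reached that level and 2.59% did so with a higher value in stressed libraries; DESeq2 had 1, where 4.87% of all genes reached it, and limma-voom 3, where 8.84% did. The median log2 fold change of the 5 genes was 0.09, against 0.00 (0.00447) over all genes tested.

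Cybb, the catalytic chain, had 3091, 2689, 2405, 2867 and 2803 CPM in stressed replicates 1 to 5, against 2886, 2728, 3402, 2968 and 2928 CPM in non-stressed replicates 1 to 5. The groups overlapped: 2 stressed libraries lay below all non-stressed ones, and stressed replicate 1 lay above 4 of them. The log2 fold change was -0.10 (SE 0.07, 95% interval -0.26 to 0.05, adjusted p = 0.950). Without stressed replicate 3 it was -0.06, and without non-stressed replicate 3, the highest, also -0.06.

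Cyba, the small membrane chain, had 540, 574, 595, 640.03 and 578 CPM in stressed replicates 1 to 5, against 531, 544, 559.8, 566 and 563 CPM in the non-stressed ones. Stressed replicates 2 to 5 lay above every non-stressed library, and stressed replicate 1 lay among the lower non-stressed ones. Its log2 fold change was 0.09 (SE 0.06, 95% interval -0.04 to 0.22, adjusted p = 0.950).

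Ncf1, the cytosolic organiser, had 373, 324, 359, 410.4 and 379 CPM in stressed replicates 1 to 5, against 303, 303, 324, 382 and 343 CPM in the non-stressed ones. Only stressed replicate 4 lay above all non-stressed libraries, and non-stressed replicate 4 lay above 4 stressed ones. The log2 fold change was 0.16 (SE 0.08, 95% interval -0.02 to 0.34, adjusted p = 0.895).

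Ncf4, whose product binds phosphatidylinositol 3-phosphate on phagosomes, had 279, 319, 343, 307 and 317 CPM in stressed replicates 1 to 5, against 255, 224, 268, 291 and 282 CPM in the non-stressed ones. Stressed replicates 2 to 5 lay above every non-stressed library, while stressed replicate 1 lay below non-stressed replicates 4 and 5. Its log2 fold change of 0.25 (SE 0.08, 95% interval 0.08 to 0.43), a fold of 1.19, had an unadjusted p of 0.00794 and an adjusted p of 0.829 in edgeR, so it did not pass the threshold. The adjusted p was 0.382 in DESeq2 and 0.340 in limma-voom. Neutrophils also express Ncf4. The summed neutrophil markers lay between 955 and 1895 CPM in stressed and 758 and 1892 CPM in non-stressed libraries. Of these 10 markers 8 were higher and 2 lower by fold change, 0 called, none at 0 in all libraries, and Mmp8 had the smallest p. The largest part of the sum was Csf3r, at a mean of 744 CPM in stressed and 661 CPM in non-stressed libraries. Ly6g, Ngp, Camp and Ltf averaged at most 8.47 CPM in either group, and the rest 42.0 to 207 CPM. When the level of neutrophil markers was a covariate, the log2 fold change of Ncf4 was 0.32 (edgeR adjusted p = 0.0816). With that covariate 1437 of 13334 genes had an unadjusted p under 0.05 in edgeR, against 738 without it. The part of neutrophils in the Ncf4 values was not tested.

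Rac2, the GTPase of blood cells, had 505, 571, 509, 479 and 516 CPM in stressed replicates 1 to 5, against 554, 502, 517, 488 and 482 CPM in the non-stressed ones. The groups overlapped throughout, with 1 stressed library above and 1 below all non-stressed ones. The log2 fold change was 0.03 (SE 0.07, 95% interval -0.11 to 0.16, adjusted p = 0.990), with a sign that turned to -0.02 without stressed replicate 2. The 95% intervals of the 5 genes ended at -0.26 on the lower and 0.43 on the upper side, so changes beyond these sizes on the log2 scale lay outside them.

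**Figure D2:**
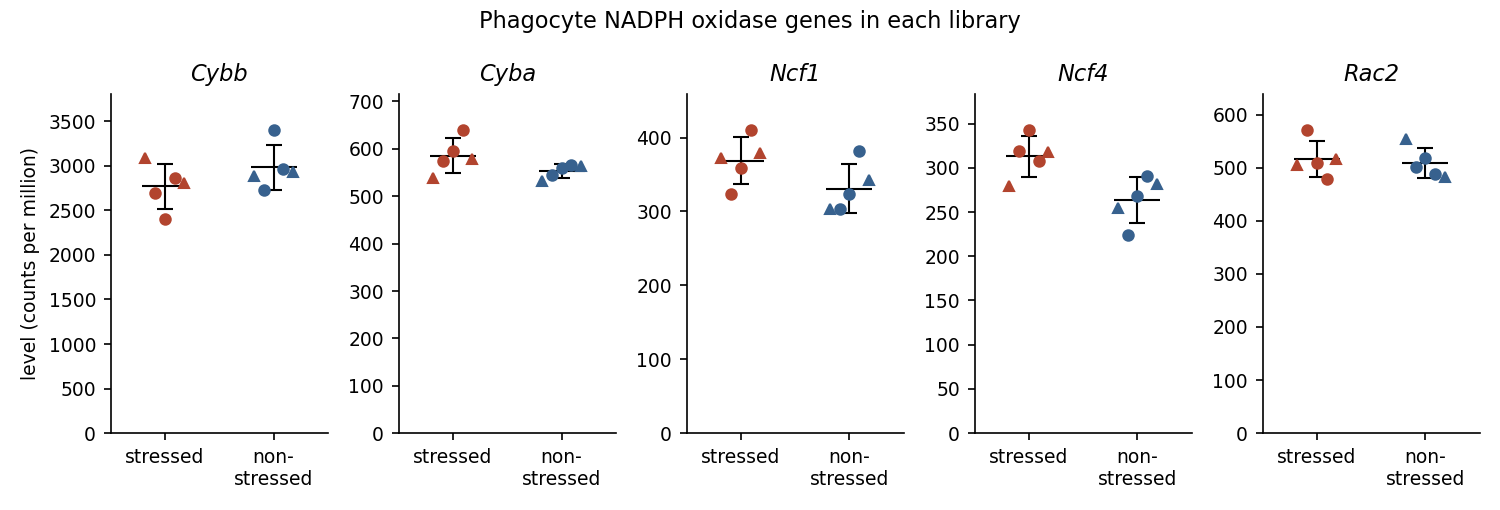
CPM of each of the 5 genes in every stressed (red, left) and non-stressed (blue, right) library; each axis starts at 0. Circles are the 6 libraries with reads of the Y-linked gene Ddx3y, triangles the 4 without, and lines the mean and SD of 5. For Cyba and Ncf4, 4 of 5 stressed libraries lie above all non-stressed ones.

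**Figure D3:**
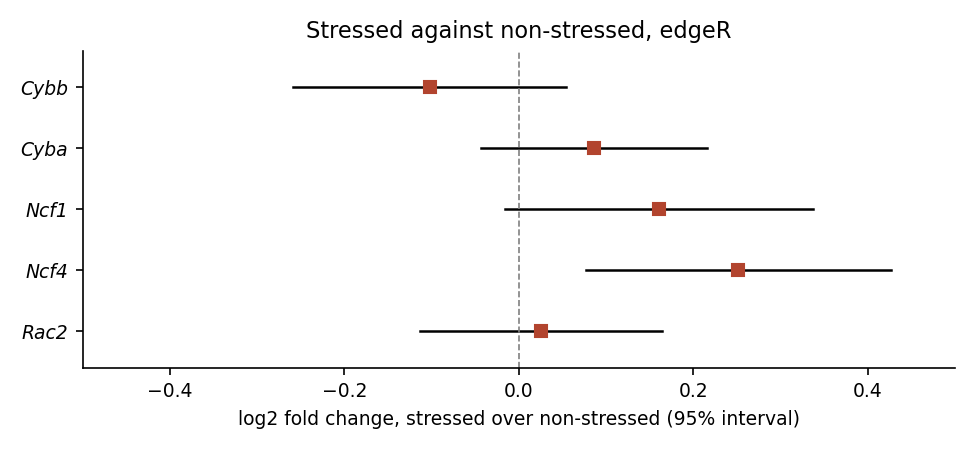
Log2 fold change of stressed over non-stressed libraries with its 95% interval from edgeR for the 5 genes. The intervals of Cybb, Cyba, Ncf1 and Rac2 cross 0 and that of Ncf4 runs from 0.08 to 0.43, before adjustment over 13334 genes.

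The libraries divided by sex-linked transcripts: 6 (3 per group) had 2278 to 4360 reads of Ddx3y, and 4 (2 per group) had 0 of them and 9241 to 18977 reads of Xist, the transcript that silences an X chromosome. Cybb is X-linked. It spanned 2405 to 3402 CPM in the libraries with Ddx3y and 2803 to 3091 CPM in those without. The difference between group means of Cybb (stressed minus non-stressed, normalised log2 CPM) was -0.19 with Ddx3y and 0.03 without. It was 0.31 and 0.17 for Ncf4, 0.11 and 0.23 for Ncf1, 0.11 and 0.04 for Cyba, and 0.04 and -0.005 for Rac2, libraries with Ddx3y before those without. A test of whether the stress effect differs between the kinds of library (interaction term, edgeR) gave an unadjusted p of 0.149 for Cybb and an adjusted p of 0.999997 for each of the 5 genes.

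Cybb and Cyba encode the chains of 1 heterodimer, so their ratio within a library was compared; it does not depend on library scaling. The ratio of Cybb to Cyba in TPM was 1.02, 0.838, 0.723, 0.801 and 0.867 in stressed replicates 1 to 5, against 0.972, 0.897, 1.09, 0.939 and 0.9299 in the non-stressed ones. Stressed replicates 2 to 5 lay below every non-stressed library and stressed replicate 1 lay above 4 of them. The log2 ratio of counts averaged 2.24 ± 0.18 in stressed and 2.43 ± 0.11 in non-stressed libraries (SD, n = 5 each), a difference of -0.19 (two-sided exact permutation test, p = 0.0873, adjusted p = 0.135 over 2 ratios). Without stressed replicate 1 it was -0.26 (exact permutation p = 0.0159, not adjusted). That library was the only stressed one to overlap the non-stressed group. Leaving it out separates the groups completely, so this p is the smallest possible and decides nothing. In the libraries with Ddx3y the difference was -0.30, and in those without it -0.01.

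Rac2 was set against Rac1, the form found in most cell types, in the same way. The Rac2 to Rac1 ratio in TPM was 1.59 to 1.96 in stressed and 1.46 to 1.802 in non-stressed libraries, so the blood cell form was the more abundant per exon length in all 10. By counts the ratio was lowest in non-stressed replicate 2 (1.0091) and highest in stressed replicate 3 (1.349). A ratio by the longest transcript is not given for this pair. The log2 count ratio averaged 0.29 ± 0.12 in stressed and 0.17 ± 0.11 in non-stressed libraries (SD, n = 5 each), a difference of 0.12 (exact permutation test, p = 0.135, adjusted p = 0.135). That difference was 0.26 in the libraries with Ddx3y and -0.09 in those without.

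**Figure D4:**
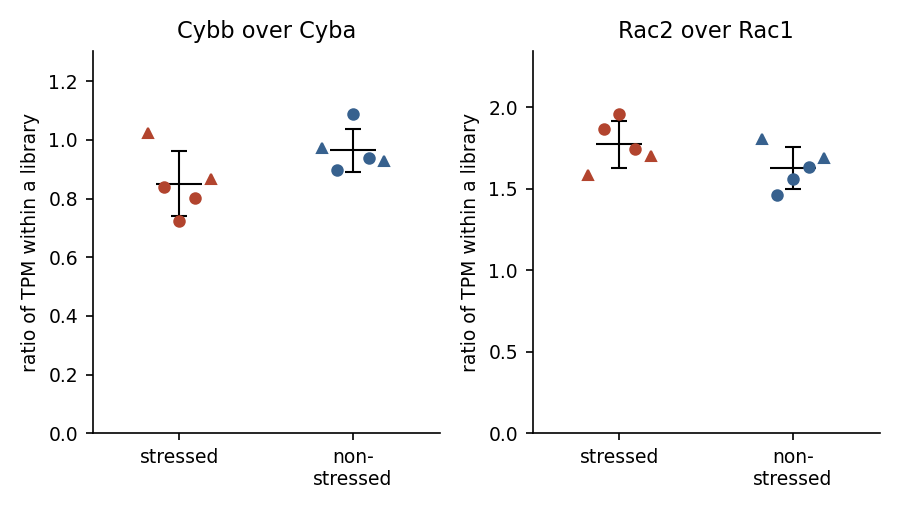
Ratio of Cybb to Cyba (left panel) and of Rac2 to Rac1 (right panel) in TPM within each stressed (red) and non-stressed (blue) library, with mean and SD of 5; circles have reads of Ddx3y and triangles have 0. In the left panel 4 of 5 stressed libraries lie below all non-stressed ones.

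The 5 genes did not vary as 1 block over the 10 libraries. Pairs of members were compared on normalised log2 CPM (TMM factors). Among the 10 pairs, Cyba and Ncf4 had a Spearman rho of 0.87 (permutation p = 0.00245, adjusted p = 0.0245 over 10 pairs) and a Pearson r of 0.70 (permutation p = 0.0251, adjusted p = 0.125). Without the 2 libraries farthest from the median of Cyba the Pearson r was 0.85, and in the 6 libraries with Ddx3y 0.67; the 4 others are too few for a value. For Cyba and Ncf1 r was 0.71 (permutation p = 0.0182, adjusted p = 0.125) and rho 0.64 (permutation p = 0.0554, adjusted p = 0.243). The r of this pair was 0.38 without the 2 libraries farthest from the median of Cyba and 0.83 in the 6 libraries with Ddx3y, so it depended on the libraries used. Ncf1 and Ncf4 had r = 0.64 (permutation p = 0.0432, adjusted p = 0.144; rho 0.56, permutation p = 0.0952, adjusted p = 0.243). Cybb had r values of -0.39 to 0.01 with the others, at adjusted permutation p values of 0.528 to 0.971. Without the 2 libraries farthest from the median of Cybb these were -0.15 with Cyba, 0.52 with Ncf1, 0.08 with Ncf4 and -0.49 with Rac2. In the 6 libraries with Ddx3y they were -0.24, -0.03, -0.40 and -0.16 in that order, so they depended on the libraries used. All points of a pair share a library and its depth, and part of each value is the difference between the groups.

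Over all 10 libraries, the genes most like each member were listed among 8402 well expressed named genes, by Pearson r of log2(CPM + 1), as a description. For Cybb they were Gtf3c3, a subunit of the RNA polymerase III factor TFIIIC (r = 0.92), Hook3, a microtubule motor adaptor (0.91), and Arl5c (0.91). For Cyba they were the kinase gene Araf (0.93), Gmfg (0.92) and Lsp1, an actin-binding protein of leukocytes (0.92). For Ncf1 they were Apobec1, a cytidine deaminase (0.95), the complex I subunit gene Ndufa8 (0.92) and Ms4a8a (0.91), and for Ncf4 the inhibitory myeloid receptor gene Pirb (0.95) and Hopx (0.94). For Rac2 they were Hexim1, an inhibitor of transcription elongation (0.97), Adam9 (0.94) and Ifitm1 (0.93). The other members came no nearer than place 311 in any of these rankings.

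The related lists had 0 genes called in edgeR, DESeq2 and limma-voom; 9 of 62 tested genes, Ncf4 included, had an unadjusted p under 0.05 in edgeR (5.53% of all genes). The count was 9 of 63 in DESeq2 (4.87% of all genes) and 17 of 62 in limma-voom (8.84% of all genes). Of the other oxidase parts, Rac1 stood at 424 ± 34.6 CPM in stressed and 454 ± 34.4 CPM in non-stressed libraries, with a log2 fold change of -0.09 (SE 0.07). Cybc1, a chaperone of the membrane heterodimer, had 207 ± 19.3 and 207 ± 17.8 CPM (log2 fold change 0.00 (0.00477), SE 0.08; the sign turned under 2 other settings and without some single libraries). Rap1a, a small GTPase that copurifies with the membrane part, had 219 ± 15.9 CPM in stressed and 248 ± 20.7 CPM in non-stressed libraries (log2 fold change -0.18, SE 0.08, edgeR adjusted p = 0.874). The voltage-gated proton channel Hvcn1, which balances the oxidase's charge, stood near 9 CPM in both groups, at 9.39 ± 3.02 and 9.12 ± 3.87 (SD, n = 5 each). Its log2 fold change was 0.04 (SE 0.29) and turned to -0.14 in limma-voom and -0.16 with the neutrophil covariate.

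Other NADPH oxidases were near or below detection. Nox4, the NADPH oxidase of vessel wall cells, and Nox3, Noxa1, Duox1, Duox2, Duoxa1 and Duoxa2 had 0 reads in all 10 libraries, where a count of 0 allows at most 0.0785 to 0.166 CPM per library (3 counts, counting error only). Nox1 had 26 reads, all in 1 stressed library. Noxo1, the organiser of NOX1, had up to 1.154 CPM in stressed and up to 1.56 CPM in non-stressed libraries, and was the 1 gene of this list that could be tested (log2 fold change -1.10, SE 0.81). Cybb was thus the catalytic NADPH oxidase gene with by far the highest counts of those listed.

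The list for supply of NADPH, the oxidase's electron donor, held Idh1 and genes of the pentose phosphate pathway among its tested members. Not all of their enzymes make NADPH themselves, and transaldolase does not. Fold changes were positive in 6 of 6 tested members, with a median log2 fold change of 0.12, where 50.9% of all tested genes were positive. None passed. Pgd, an oxidative pentose phosphate enzyme, had 549.7 ± 21.2 CPM in stressed and 491 ± 32.2 CPM in non-stressed libraries (log2 fold change 0.17, SE 0.06, unadjusted p = 0.0192, edgeR adjusted p = 0.874), with 4 of 5 stressed libraries above all non-stressed ones. Idh1, the cytosolic isocitrate dehydrogenase, stood at 307 ± 28.2 and 270.2 ± 22.7 CPM (0.19, SE 0.08), and Taldo1, transaldolase, at 742 ± 62.5 and 674 ± 21.01 CPM (0.14, SE 0.07). G6pdx, whose enzyme opens the pathway, had 352 ± 31.5 and 345 ± 14.4 CPM, stressed before non-stressed, and a log2 fold change of 0.04 (SE 0.07) that was -0.03 without stressed replicate 5.

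Of the genes that remove superoxide and peroxide, 7 of 9 tested members had positive fold changes, with a median of 0.10. Prdx2, a peroxiredoxin, had 128 ± 8.01 CPM in stressed and 109 ± 1.54 CPM in non-stressed libraries (SD, n = 5 each), with all 5 stressed libraries (120 to 138 CPM) above all non-stressed ones (107 to 111 CPM). Its log2 fold change was 0.23 (SE 0.07, edgeR adjusted p = 0.788). Gpx1, a glutathione peroxidase, was likewise higher in 5 of 5, at 1457 ± 41.7 against 1318 ± 86.8 CPM (0.15, SE 0.06, edgeR adjusted p = 0.874). Groups did not overlap for 1.09% of all genes tested. Prdx2 is also abundant in red cells, whose marker list was summed to 1172 to 5528 CPM in stressed and 1333 to 2781 CPM in non-stressed libraries with all 7 members at positive fold changes and 5 at an unadjusted p under 0.05 in edgeR; its part in this result was not tested. The superoxide dismutase genes stood at log2 fold changes of 0.06 (Sod1, SE 0.09) and -0.16 (Sod2, SE 0.11). Mpo, the myeloperoxidase of neutrophil granules, had 31 reads in 5 libraries.

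Of the genes around Rac, 8 of 12 had positive and 4 negative fold changes (median 0.02). Dock2 and Prex1, Rac exchange factors of leukocytes, stood at 688 ± 46.9 and 569 ± 47.8 CPM in stressed and 718 ± 27.9 and 603 ± 26.3 CPM in non-stressed libraries. Of 16 kinase and lipid enzyme genes that act on the oxidase, 8 were positive and 8 negative (median 0.00 (0.000956)). Prkcd, the kinase that phosphorylates the Ncf1 product, was the most abundant at 1309 ± 170.5 CPM in stressed and 1356 ± 142 CPM in non-stressed libraries. Pik3r5, an adaptor of phosphoinositide 3-kinase gamma, had a log2 fold change of 0.17 (SE 0.08, edgeR adjusted p = 0.874). Of 8 transcription factor genes linked to oxidase transcription, 6 were positive and 2 negative (median 0.07). Spi1, which encodes PU.1, had 689 ± 34.7 and 668 ± 35.5 CPM and Irf8, its partner, 420 ± 67.7 and 397 ± 48.2 CPM, stressed before non-stressed (SD, n = 5 each).

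Of the other cell types a sort of the aorta could hold, B cell markers were summed to 324 to 598 CPM in stressed and 463 to 861 CPM in non-stressed libraries, with 6 of 6 at negative fold changes and 0 called. T and NK cell markers lay at 6.56 to 43.9 and 11.8 to 72.7 CPM, platelet markers at 99.2 to 226 and 57.9 to 208 CPM, and smooth muscle and fibroblast markers at 11.8 to 18.6 and 8.42 to 17.4 CPM, stressed before non-stressed libraries. By fold change 5 of 7 T and NK cell markers were lower and 2 higher, and 5 of 5 platelet markers were higher. Of 2 tested smooth muscle and fibroblast markers 1 was higher and 1 lower, with 0 called in any of these lists. The part of these cell types in the values of the oxidase genes was not tested.

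**Figure D5:**
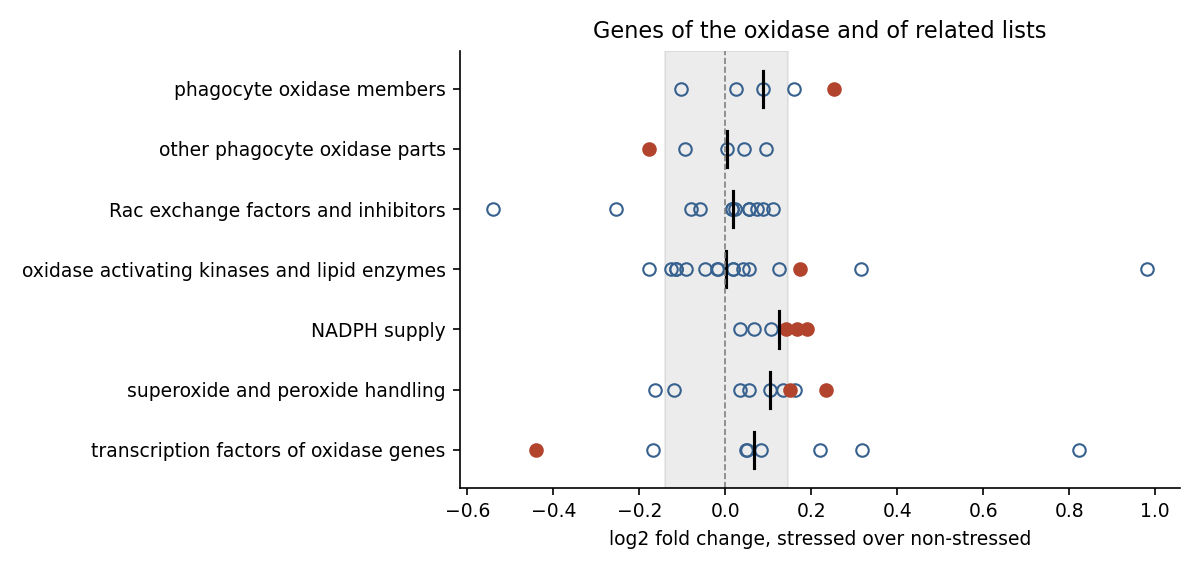
Log2 fold change of stressed over non-stressed libraries for each tested gene of the oxidase and of 6 related lists. Filled red points have an unadjusted p under 0.05, black bars are list medians and the grey band is the middle part of all tested genes, from -0.14 to 0.15. No point passed the adjusted threshold.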

How the data were processed

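The deposited table holds raw counts of reads per Ensembl gene, which the authors made with Trimmomatic, STAR and featureCounts on mm10, per the submitters' processing notes; libraries came from a TruSeq Stranded kit, per the labels' protocols. Tool versions, gene annotation and the strandedness used in counting are not given in the sources. Groups and replicate numbers came from the sample titles. Nothing says that samples were separate animals, so a p-value reflects only how far these samples scatter, which may be technical.

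Gene names, coordinates and exon lengths came from GENCODE M21 (mm10), which held 48144 of 48526 identifiers; the 382 others held at most 0.0344% of a library's counts. The main test was that of edgeR 4.0.16 under R 4.3.3 (filterByExpr with a minimum count of 10, TMM factors, intercept and group, quasi-likelihood F test, Benjamini-Hochberg adjustment at 0.05 over all 13334 tested genes). Standard errors were derived from the log2 fold change and F. CPM uses plain library totals, or TMM factors where it is called normalised, and TPM the union of exons. Ratios were compared by a two-sided exact permutation test (252 assignments, smallest p 0.00794, scipy 1.17.1), and pairs of members by 100000 permutations. No 2 libraries of a group were duplicates.

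Alternatives were RLE, upper-quartile and no factors, DESeq2 1.42.0, limma-voom (limma 3.58.1) with quality weights, 2 other filters, a cutoff of 0.1, robust dispersion, a block for replicate number, Ddx3y or neutrophil marker level as a covariate, 1 surrogate variable (sva 3.50.0) and leaving out each library. The members and lists were chosen with earlier results of these data known. From each list, genes with an unadjusted p under 0.05 and up to 4 others by level were named. Sod2, Mpo, Ly6g, Ngp, Camp, Ltf and genes at 0 were named after their values were seen. Of the related genes, 3 are not reported here.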

Additional observations from a re-analysis of the deposited data

How the results depend on the processing

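The number of genes called was 1 and became 19 with DESeq2, 2 with limma-voom, 10 with every gene kept, 15 with the neutrophil covariate, 4 with 1 surrogate variable, 4 with the replicate block and 1 to 2 with single libraries left out; in none of these was an oxidase gene called. Cybb, Cyba, Ncf1 and Ncf4 kept their sign under all 23 alternatives, at log2 fold changes of -0.17 to -0.06, 0.05 to 0.11, 0.12 to 0.22 and 0.19 to 0.32, with lowest adjusted p values of 0.530, 0.520, 0.242 and 0.0816 (edgeR or limma-voom). Rac2 was -0.000373 with the neutrophil covariate and -0.0182 to 0.0499 with single libraries left out. The difference in the Cybb to Cyba ratio was -0.30 and -0.0116 in libraries with and without Ddx3y, and -0.26 to -0.13 with single libraries left out. It was past 0.05 only without stressed replicate 1, the library whose removal separates the groups completely, so that p decides nothing. That of Rac2 to Rac1 was 0.26 and -0.0860, and 0.08 to 0.16 with single libraries left out. Cybc1 was -1.33e-05 with upper-quartile factors, -0.00338 with 1 surrogate variable and -0.0422 to 0.0463 with libraries left out. Hvcn1 was -0.14 with limma-voom, -0.16 with the neutrophil covariate and -0.16 to 0.33 with libraries left out. G6pdx was -0.0258 to 0.0618 and Prdx1 -0.00156 to 0.0587 with libraries left out. The causes were not tested. The labels give no meaning to a shared number. Deviations of same-numbered libraries correlated at -0.03 to 0.16, over 0.1 in 4 of 5 pairs; 4 of 5 stressed libraries matched their own number best and all 5 pairs were alike in Ddx3y, a hint of pairing from the data, not the design. As 1 pair was not over 0.1, the tests were left unpaired. With the replicate block 0 of the 5 oxidase genes were called; Ncf4 was at 0.25 (edgeR adjusted p = 0.485), and the ratio of Cybb to Cyba had an exact sign-flip permutation p of 0.125, that of Rac2 to Rac1 0.312. The depth allows at best 0.0785 to 0.166 CPM as a limit for a gene at 0.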
